A study of Mus musculus with 4 samples.

Results

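Some protein-coding genes lie so close that a single stretch of DNA borders the ends of both. Regions at such places were defined as those whose midpoint fell no more than 2000 bp from ends of at least 2 different protein-coding genes of RefSeq on chromosomes 1 to 19. This held for 506 of 38581 autosomal regions (1.31%), out of 39231 regions in all. The choice used positions only and no tag count or fold. Exactly 2 genes qualified at 491 of the 506 regions, 3 genes at 14, and 25 genes at 1.

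The regions come from captured DNA of satellite cells, the stem cells of skeletal muscle, taken from hindlimb muscles of 9-week-old mice and cultured for 3 days. Mice received oil, or tamoxifen on 5 consecutive days to activate Cre and remove Uhrf1, a protein that directs the maintenance methyltransferase to newly copied DNA. The promoter that drives Cre and the number of mice per library are not given in the sources used here. There are 4 libraries (oil or tamoxifen, methylated or non-methylated DNA, 1 library each). The list compares 1 oil library of 19534328 kept tags with 1 tamoxifen library of 25614791, counted after repeat tags at one position were dropped. Before that step the totals were 35216008 and 36519772 tags, so the libraries differ in size mainly after it. Of 20665 autosomal protein-coding genes, 17.9% had a region within 2000 bp of an end. The list holds only regions where oil exceeded tamoxifen after the libraries were scaled to one size. The header does not say which DNA part was used. It is read here as the methylated part. With 1 library per treatment there is no test of any difference below, and deletion, tamoxifen, animal, culture and capture cannot be told apart. The identity of the cells was not checked, since the list holds no expression values.

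Neighbouring genes can face each other in 3 ways. In a head-to-head pair the genes are on opposite strands and their 5′ ends, where transcription starts, face each other, often around one CpG-rich promoter that serves both genes and is usually kept free of methylation. In a tail-to-tail pair the 3′ ends face each other. In a tandem pair both genes are on one strand, so that the 3′ end of one usually faces the 5′ end of the next. DNA methylation in mammals lies mostly at CpG, the dinucleotide whose methylated form MBD2 binds, and gene bodies and 3′ ends are commonly methylated. A group of germ cell genes has CpG-rich promoters that are methylated in somatic cells.

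Printed first are 5 promoter stretches at close pairs that are free of both genes and hold the summit of a region, chosen to show sequence at which the signal itself was highest. They are not all promoters with a region: 15 promoter windows of head-to-head genes and 48 of other close pairs overlapped one. The promoters of Cort and of Mettl7a2 with Methig1 are left out, since there the summit lay inside the window but outside such a stretch. Each runs 5′ to 3′ on the strand of the gene named, with each CpG in capitals, from the RefSeq promoter table of GRCm38.p6. They are the stretch between Mov10l1 and Mlc1 (chr15:88982744-88982890, plus strand, 147 bases, 10 CpG), between Smc1b and Ribc2 (chr15:85131958-85132059, minus strand, 102 bases, 12 CpG), between Btbd18 and Ctnnd1 (chr2:84658978-84659071, plus strand, 94 bases, 10 CpG), before Slc6a16 (chr7:45240503-45240752, plus strand, 250 bases, 14 CpG) and before Kcnk7 (chr19:5704221-5704470, plus strand, 250 bases, 9 CpG).
Mov10l1: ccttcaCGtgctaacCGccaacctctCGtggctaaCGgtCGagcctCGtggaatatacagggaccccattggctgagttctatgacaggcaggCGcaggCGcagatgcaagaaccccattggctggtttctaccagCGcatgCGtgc
Smc1b: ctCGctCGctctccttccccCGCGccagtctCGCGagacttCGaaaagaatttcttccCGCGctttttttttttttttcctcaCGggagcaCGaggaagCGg
Btbd18: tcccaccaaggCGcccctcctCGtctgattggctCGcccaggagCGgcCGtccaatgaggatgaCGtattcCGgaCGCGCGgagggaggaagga
Slc6a16: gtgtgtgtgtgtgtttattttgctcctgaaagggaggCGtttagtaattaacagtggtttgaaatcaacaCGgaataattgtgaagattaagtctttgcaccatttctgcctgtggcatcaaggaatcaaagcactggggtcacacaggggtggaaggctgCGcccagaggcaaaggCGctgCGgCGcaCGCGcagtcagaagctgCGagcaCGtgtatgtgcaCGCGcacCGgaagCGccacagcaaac
Kcnk7: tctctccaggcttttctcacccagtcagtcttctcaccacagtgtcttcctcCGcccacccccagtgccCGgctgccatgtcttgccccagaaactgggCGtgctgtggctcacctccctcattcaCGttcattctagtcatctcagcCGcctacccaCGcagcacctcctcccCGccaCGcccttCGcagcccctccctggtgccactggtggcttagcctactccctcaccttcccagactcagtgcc
For contrast, 2 head-to-head promoters with no region follow, between Ankrd49 and Mre11a (chr9:14784574-14784653, minus strand, 80 bases, 2 CpG) and between Atm and Npat (chr9:53536829-53536888, minus strand, 60 bases, 6 CpG). These counts are for the short stretches only. The 300-base promoter windows hold 15 CpG at Ankrd49, 26 at Mre11a, 28 at Atm and 35 at Npat.
Ankrd49: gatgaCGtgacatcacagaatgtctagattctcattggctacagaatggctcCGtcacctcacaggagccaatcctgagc
Atm: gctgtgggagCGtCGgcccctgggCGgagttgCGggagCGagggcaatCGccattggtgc

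The first question was how often close pairs held a region and whether this differed with the way the genes face. Tail-to-tail pairs held regions most often and head-to-head pairs least often. Of 6551 close pairs, whose nearest ends are at most 4000 bp apart, 458 (6.99%) held 1 or more regions. By orientation a region was present at 161 of 1414 tail-to-tail pairs (11.4%, 95% limits 9.78% to 13.2%), 109 of 1671 tandem pairs (6.52%, 5.39% to 7.82%) and 53 of 1129 head-to-head pairs (4.69%, 3.54% to 6.10%). The limits of the tail-to-tail share lay above both others, while those of tandem and head-to-head pairs overlapped. Both statements turn with a gene end required within 1000 bp, where the limits of tail-to-tail pairs (3.82% to 6.61%) overlapped those of tandem pairs (2.34% to 4.72%) and head-to-head pairs (0.564% to 2.01%) lay below both. Strand was not known for 1 or both genes at 2234 pairs, of which 131 (5.86%) held a region. With a gene end allowed 5000 bp away, head-to-head pairs (13.6%) no longer lay below tandem pairs (13.4%). The 1000 bp and 5000 bp settings also count other sets of pairs, because the allowed spacing of the ends, 4000 bp here, changes with the distance.

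Tail-to-tail pairs whose genes overlap held a region in 66 of 407 cases (16.2%), against 95 of 1007 (9.43%) where the genes lie apart. Among head-to-head pairs it was 12 of 371 overlapping (3.23%) and 41 of 758 apart (5.41%). The share fell with the distance between the 2 ends in each orientation, from 17.8% to 3.84% tail-to-tail, from 14.9% to 2.59% in tandem and from 7.67% to 0 of 153 head-to-head (upper limit 2.38%). Part of this is by construction, because the stretch that borders both genes shrinks as they move apart. Ends lay 2000 to 4000 bp apart in 695 of 1671 tandem, 391 of 1414 tail-to-tail and 153 of 1129 head-to-head pairs. The shares over all distances therefore compare pairs of unlike spacing. Within every distance class the limits of tail-to-tail pairs overlapped those of tandem pairs.

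**Figure D1:**
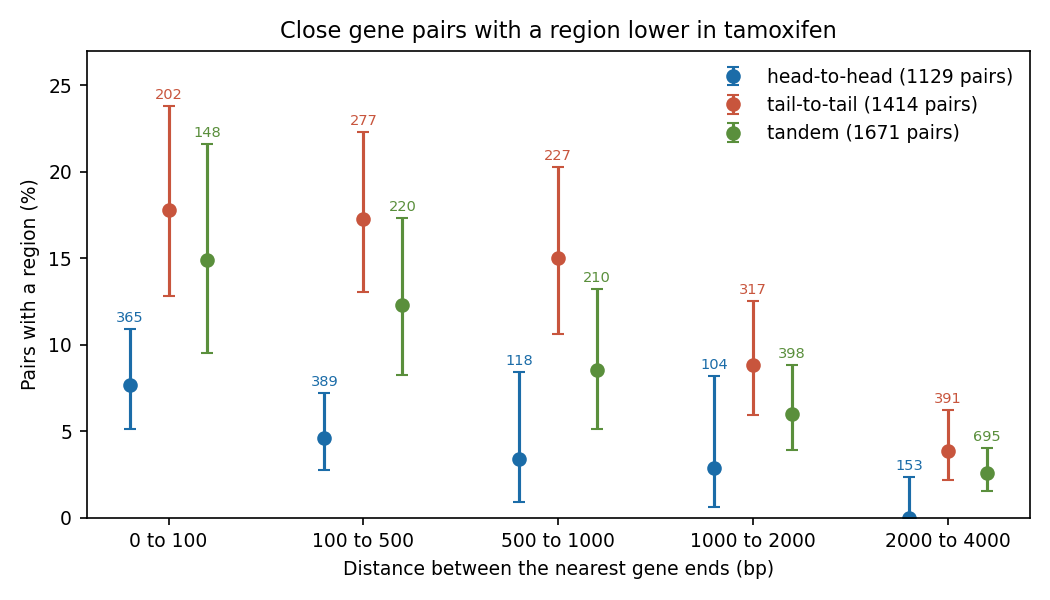
Share of close protein-coding gene pairs with a region (vertical axis, percent) by the distance between their nearest ends (horizontal axis, bp), for head-to-head, tail-to-tail and tandem pairs. Points are shares, bars exact 95% limits and small numbers the pairs in each class. Tail-to-tail pairs have the highest share in every distance class, from 17.8% down to 3.84%, with limits that overlap those of tandem pairs in each.

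Densities per length of genome class each region by the 2 gene ends nearest to it, whereas the shares above class each pair by its own nearest ends. A region can therefore count for a pair of another orientation, and the 51 head-to-head regions below lay at fewer pairs than the 53 above. With this other classing, tail-to-tail again came first and head-to-head last. Stretches that border 2 or more genes span 15.5 Mb of the autosomes and held 32.7 regions per Mb (95% limits 29.9 to 35.7). Stretches that border 1 gene held 26.2 per Mb (3294 regions) and the rest of the autosomes 15.1 per Mb (34781 regions). Within the stretches bordering 2 genes, the density was 49.6 per Mb at tail-to-tail pairs (178 regions), 34.6 in tandem (121 regions) and 14.6 at head-to-head pairs (51 regions, limits 10.9 to 19.2). The last value lay close to the 15.8 per Mb of all autosomal DNA. At a further 14 regions the nearest ends were the 5′ end of one gene and the 3′ end of another on the opposite strand, and 9 of these regions lay between the ends. At 142 regions strand was not known.

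Head-to-head density was lower up to 1000 bp from a start than beyond it, on few regions. It was 8.63 per Mb within 250 bp of the nearer 5′ end (6 regions, limits 3.17 to 18.8). From 250 to 500 bp it was 9.13 (5 regions, 2.97 to 21.3). From 500 to 1000 bp it was 8.43 (8 regions, 3.64 to 16.6) and from 1000 to 2000 bp 24.7 (32 regions, 16.9 to 34.9). The limits of the classes below 500 bp overlapped those of the last. The median region lay 1196 bp from the nearer start, and 48 of 51 lay inside 1 of the genes and 3 between them. However, 3.00 of the 3.49 Mb of head-to-head stretch is itself inside 1 of the genes. The density was 16.0 per Mb there (limits 11.8 to 21.2) and 10.5 inside neither gene (limits 2.17 to 30.7). In tail-to-tail pairs the 4 densities were 46.1, 27.5, 63.9 and 52.7 per Mb from the nearer 3′ end, with a median distance of 726 bp. In tandem pairs the side mattered, since stretches nearer to a 3′ end held 44.6 per Mb (78 regions, limits 35.3 to 55.7) and those nearer to a 5′ end 24.6 (43 regions, limits 17.8 to 33.2). By distance, the tandem 5′ side held 28.7, 20.0, 22.5 and 26.9 per Mb, with limits that overlapped those of head-to-head pairs in each class. Over all orientations 393 regions lay inside 1 gene of the pair with the nearest ends, 30 inside both and 83 in neither.

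**Figure D2:**
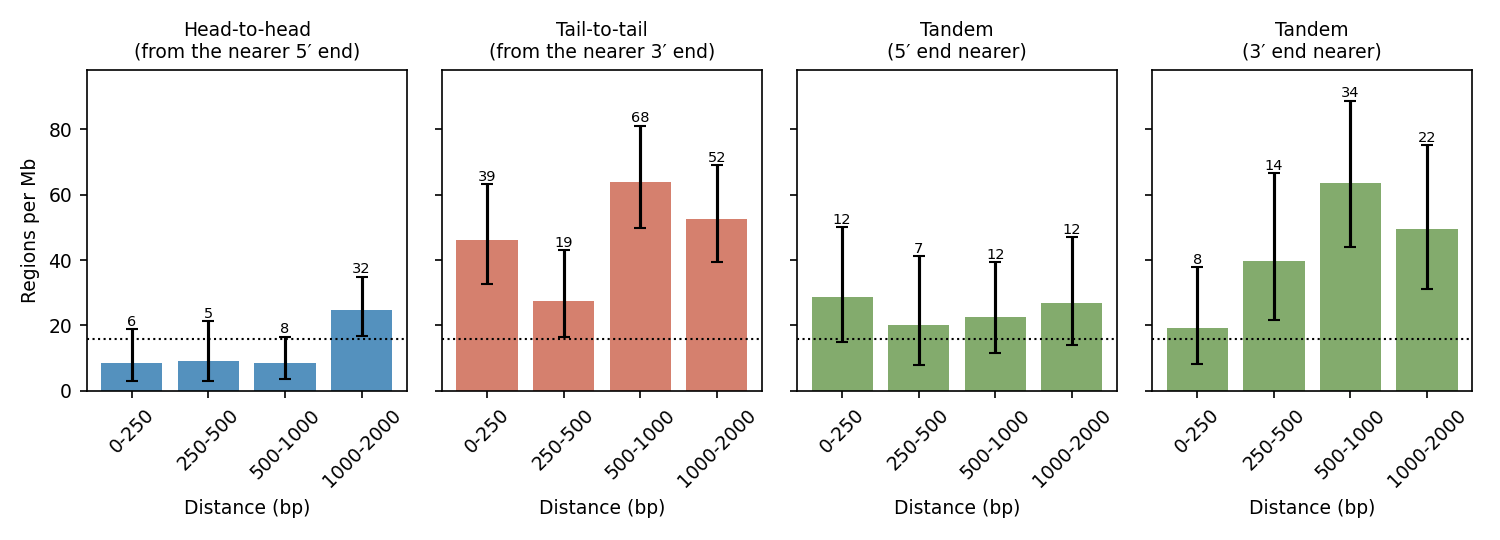
Regions per Mb (vertical axis) by the distance of the region's midpoint from the nearer gene end (horizontal axis, bp) at head-to-head, tail-to-tail and tandem pairs. Bars are densities, lines exact Poisson 95% limits, small numbers the regions counted and the dotted line the 15.8 per Mb of all autosomes. Head-to-head densities stay below that line up to 1000 bp, with limits that include it.

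The second question was how far the signal fell at these regions. At close pairs the oil library had a median of 45 tags over the summit and the tamoxifen library 11, a median fold of 4.95 (quartiles 4.04 and 6.38). The scaled tamoxifen signal was 18.3% of the oil signal at the median. Regions that border 1 gene had median values of 49 and 13 tags and 4.71-fold, and all other autosomal regions 51 and 14 tags and 4.58-fold. A fold of 4 or more was reached by 381 of the 506 regions (75.3%, limits 71.3% to 79.0%), against 66.2% of all autosomal regions. A fold of 10 or more was reached by 13 (2.57%), against 2.03%. A q of 1e-10 or less was reached by 418 (82.6%), against 82.9%. Folds and tags come from regions that all passed one q limit, so weaker differences are absent from every group. By orientation the median fold was 5.12 tail-to-tail, 4.89 in tandem and 4.33 head-to-head, and 4-fold was reached by 138 of 178, 93 of 121 and 34 of 51 regions. Median oil tags ran the other way, at 41.5, 47 and 51. Whether the order of the folds follows the tag counts was not tested.

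Close to the distance limit, the 89 regions whose second gene end lay 1800 to 2000 bp away had a median fold of 5.03. The 90 regions just outside, at 2000 to 2200 bp, had one of 4.78.

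**Figure D3:**
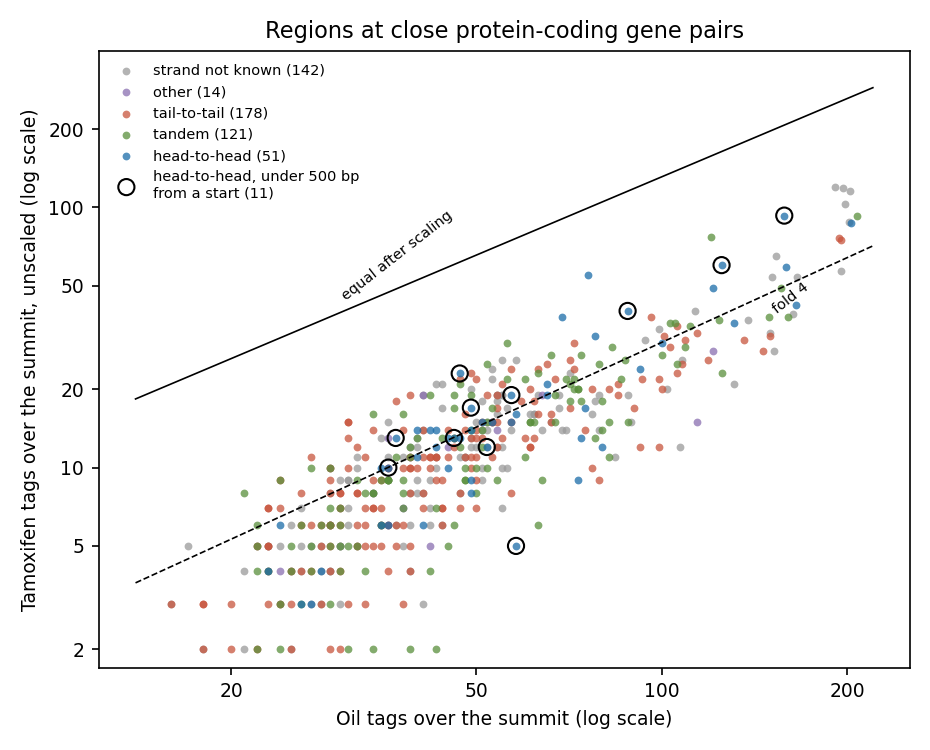
Oil tags (horizontal axis) against unscaled tamoxifen tags (vertical axis) over the summit of each of the 506 regions, both on log scales, coloured by orientation. The solid line marks equal signal after scaling, the dashed line a fold of 4, and regions at 2 or fewer tamoxifen tags are drawn at 2; circles mark the 11 head-to-head regions under 500 bp from a start, of which 4 lie under 3-fold.

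Few regions lay at a head-to-head promoter itself. Of 51 head-to-head regions, 11 lay under 500 bp from a start, and 7 of these were below 4-fold. Their median fold was 3.58, with medians of 52 oil and 17 tamoxifen tags. The 32 head-to-head regions at 1000 to 2000 bp had a median fold of 4.44, with 51 and 13.5 tags. Tail-to-tail regions under 500 bp from an end had a median of 5.36 (58 regions) and tandem ones 4.98 (41 regions). Germ cell genes stood beside several of the 11, which are all described here. The share of germ cell genes among all head-to-head pairs was not counted, so whether this is many is not known.

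Smc1b, which encodes a meiotic cohesin subunit, shares a promoter with Ribc2. Its region (chromosome 15, 85131837 to 85132057) had its midpoint inside Smc1b, 10 bp from the start, and its summit in the stretch between the genes. It held 125 tags with oil against 60 with tamoxifen, or 2.69-fold (1.99 to 3.78, the 95% limits of the scaled tag ratio, as in all parentheses after a fold). The stretch printed above holds 12 CpG in 102 bases. Mov10l1 encodes a helicase of the piRNA pathway, which silences transposons in the germline, and faces Mlc1. Here (chromosome 15, 88982659 to 88982930) 57 oil tags stood against 19 tamoxifen tags, 3.74-fold (2.31 to 7.0). Tex14, needed for the bridges between germ cells, faces the recombination gene Rad51c, and its region (chromosome 11, 87405211 to 87405803) had 88 and 40 tags, 2.82-fold (1.96 to 4.30). In these 3 pairs the tamoxifen library still had 19 to 60 tags.

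H2bc1 and H2ac1, which encode testis forms of histones H2B and H2A, had 47 oil and 23 tamoxifen tags (chromosome 13, 23933997 to 23934205), 2.59-fold (1.59 to 4.62), not past a q limit of 1e-10. Btbd18, which acts in piRNA production in the testis, faces Ctnnd1, the gene of p120 catenin. Their shared promoter (chromosome 2, 84658654 to 84659043) had the most tags of the 11, 158 in oil and 93 in tamoxifen, and the lowest fold, 2.21 (1.71 to 2.91). A second region of the pair, inside Btbd18 (84659907 to 84660222), had 78 and 32 tags, 3.11-fold. The male meiosis gene Dmrtc2 and its neighbour Lypd4 had 52 and 12 tags (chromosome 7, 24869205 to 24869452), 5.22-fold (2.99 to 11.7). Of these germ cell genes Smc1b, Mov10l1 and Tex14 belong to the germline list, while Btbd18, Dmrtc2 and the testis histone genes were recognised after their values were seen.

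The pair Peg3 and Usp29, imprinted genes that are transcribed from the paternal copy, had 37 and 13 tags (chromosome 7, 6730900 to 6731142), 3.48-fold (1.94 to 7.65), not past a q limit of 1e-10. Cd37 and Slc6a16, an orphan transporter gene, had 49 and 17 tags (chromosome 7, 45240543 to 45240751), 3.58-fold. Ung and Alkbh2, which both encode DNA repair enzymes, had 46 and 13 tags (4.31-fold), and Gm10634 and Mthfsl 36 and 10 tags (4.29-fold). The exception in size was Atp5d, which encodes a subunit of ATP synthase, and Cbarp, with 58 oil and 5 tamoxifen tags (chromosome 10, 80140210 to 80140523), 12.26-fold (6.16 to 48.6). This region lay inside Atp5d, 11.5 bp from the start of Cbarp and 1669 bp from that of Atp5d.

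**Figure D4:**
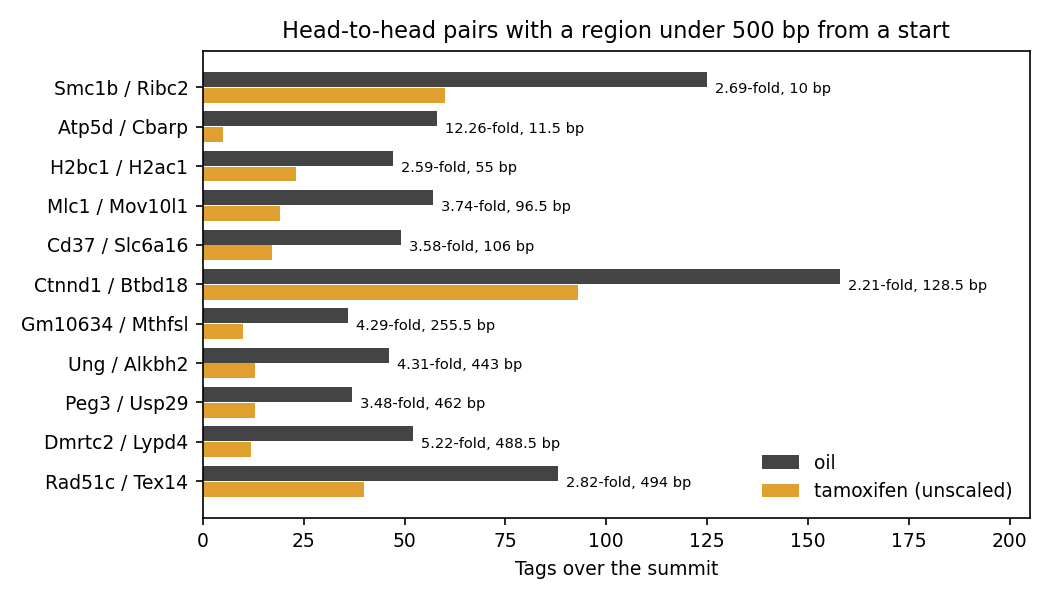
Tags over the summit (horizontal axis) in the oil and tamoxifen libraries, unscaled, at the 11 head-to-head pairs with a region under 500 bp from a start, ordered by that distance from the top. Text beside the bars gives the fold and the distance; Ctnnd1 and Btbd18 have the most tags and the lowest fold, 2.21, and Atp5d and Cbarp the highest fold, 12.26.

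The head-to-head regions named next lay farther from a start and were picked for high fold, many tags or several regions at one pair. High values among them therefore follow from the choice. Tada2b, which encodes a SAGA complex adaptor, and Ccdc96 had 73 oil and 9 tamoxifen tags inside Ccdc96 (chromosome 5, 36485956 to 36486289), 9.41-fold (5.31 to 24.2). Lmf2, a lipase maturation gene, and the condensin gene Ncaph2 had 27 and 3 tags (8.52-fold), and the cell division genes Anapc13 and Cep63 had 26 and 3 (8.21-fold). Rad9b, a checkpoint gene, and the retromer gene Vps29 had 80 and 12 tags, 7.98-fold (4.74 to 17.6). The most tags were at Fam227a and Cby1, a gene of the Wnt pathway, which held 3 regions. These had folds of 7.53 (41 against 6 tags, inside Fam227a), 3.03 (203 against 87, inside Cby1) and 1.79 (76 against 55, inside Cby1), the lowest fold of all 506. Eif2b1, a translation factor gene, and Gtf2h3 had 165 and 42 tags (5.03-fold).

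The 5 tail-to-tail regions of highest fold lay inside 1 gene of the pair. Pex6, needed for peroxisome assembly, and Gnmt, which encodes a methyltransferase that uses S-adenosylmethionine, had 38 oil and 3 tamoxifen tags inside Pex6 (chromosome 17, 46723582 to 46723841), 11.86-fold (5.27 to 84.1). Tmed1 and the dynamin gene Dnm2 had 33 and 3 tags (10.34-fold). Mars1, the methionyl-tRNA synthetase gene, and Ddit3, which encodes the stress factor CHOP, had 79 and 9 tags inside Ddit3 (chromosome 10, 127295838 to 127296104), 10.17-fold (5.77 to 26.1). Cyp27a1, a sterol hydroxylase gene, and Prkag3, which encodes a muscle subunit of AMP kinase, had 30 oil and 2 or fewer tamoxifen tags, a fold just past 10 that rests on the mean background MACS used in place of local tags. Clstn1 and the PI3 kinase gene Pik3cd held 2 regions, the stronger with 39 and 4 tags (9.88-fold). Among pairs with both genes named, the most tags were at Macrod1 and Otub1 (194 and 76, 3.31-fold) and between Igf1r, the IGF1 receptor gene, and Pgpep1l (150 and 32, 5.94-fold). Slc4a5, a bicarbonate transporter gene, and the folate enzyme gene Mthfd2 held 3 regions of 3.46-, 7.60- and 5.63-fold. Of all pairs with a region, 412 held 1, 44 held 2 and 2 held 3.

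Tandem pairs held 6 of the 13 regions of 10-fold or more. This was 4.96% of their 121 regions, against 2.03% of all autosomal regions. Those at Cryga with D630023F18Rik (11.29-fold) and at 9330159F19Rik with Soga3 (12.90-fold) had 2 or fewer tamoxifen tags. Their folds therefore rest on the mean background. Chd4, a chromatin remodeller gene, and Nop2 had 43 oil and 2 or fewer tamoxifen tags near the 3′ end of Chd4 (chromosome 6, 125130341 to 125130563), and 14.20-fold, the highest value of all 506, rests on that same mean background. Sco2, a cytochrome oxidase assembly gene, and Tymp, a thymidine phosphorylase gene, have annotated 3′ ends next to each other and had 63 and 6 tags, 11.48-fold (5.98 to 38.9). Sgcb, which encodes the muscle membrane protein beta-sarcoglycan, and Lrrc66 had 42 and 4 tags (chromosome 5, 73632158 to 73632422), 10.62-fold (5.00 to 52.9), inside Lrrc66, 131 bp from its start and 459 bp from the 3′ end of Sgcb. Lcat and Slc12a4 had 31 oil and 2 or fewer tamoxifen tags (10.32-fold, again on the mean background), and Gapdh and the condensin gene Ncapd2 had 45 and 5 (9.56-fold). Among pairs with both genes named, the most tags were at Cdh24 and Acin1 (160 and 38, 5.37-fold) and at the shared 3′ end of Iqschfp and Schip1 (156 and 49, 4.09-fold).

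Where the nearest ends were a 5′ end and a 3′ end on opposite strands, Sap25 and Irs3 had 114 and 15 tags (9.24-fold) and Gfer and Noxo1 42 and 5 (8.93-fold). Spsb2 and Tpi1 (6.64-fold), Cldn22 and Wwc2 (6.17-fold) and Drap1 and AI837181 (4.93-fold) followed, and Uqcr10 and Zmat5 had 64 and 19 tags (4.20-fold). With strand not known, the highest fold, 12.77, was at a gamma protocadherin end, where 25 genes were counted (41 and 3 tags). Other high folds were at Cdk5r1 and Myo1d (107 and 12 tags, 10.64-fold), Plbd2 and Sds (9.43-fold) and Aanat and Rhbdf2 (9.05-fold). The histone demethylase gene Kdm6b and Tmem88 had 202 and 116 tags, only 2.27-fold, and Mepce and Zcwpw1 197 and 119, 2.16-fold.

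The third question was which kinds of genes in close pairs carried such a region. Of all 9018 protein-coding genes in a close pair, 10.3% had a region that bordered a pair. In the germline list it was 4 of 17 genes, the 3 above and Tdrd12 (71 and 17 tags, 5.16-fold, tail-to-tail with Slc7a9 and inside it). In the imprinted list it was 6 of 16 genes on 5 regions. They were Sgce and Peg10 with 2 regions (29 and 4 tags, 7.41-fold; 191 and 120 tags, 2.08-fold), Ppp1r9a (25 and 4, 6.42-fold), Inpp5f (32 and 6, 5.92-fold), and Peg3 with Usp29. Neighbouring members of a list share regions, so genes are not independent counts. The lists were made with earlier results of these data known.

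Counts were too small to set genes of known bidirectional promoters apart from other close pairs. Of 10 such head-to-head pairs of the list with strand known, among them the chaperonin genes Hspd1 and Hspe1, the collagen genes Col4a1 and Col4a2 and the repair genes Atm and Brca1 with their partners, 0 held a region, with an exact upper limit of 30.8% that includes the 4.69% of all head-to-head pairs. Of 36 listed genes in a close pair, 2 had one (5.56%, against 10.3% of all genes in close pairs). These were Sgce and Peg10, a listed pair that the 10 leave out because its strand is not known. In DNA repair and replication it was 4 of 40 genes, at Pold1 (30 and 7 tags, 4.89-fold), Fanci (65 and 19, 4.26-fold), Fancd2 (54 and 19, 3.55-fold) and Ercc2 (38 and 14, 3.34-fold).

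Mitochondrial ribosomal protein genes had a region in 9 of 57 cases, led by Mrpl24 (46 and 6 tags, 8.43-fold), Mrps23 (24 and 3, 7.60-fold) and Mrpl38 (21 against 2 or fewer, 7.10-fold). Cytosolic ribosomal protein genes had one in 9 of 53, led by Rpl31 (38 and 6, 6.99-fold), Rpl4 (61 and 15, 4.98-fold) and Rpl27 (86 and 22, 4.89-fold). Zinc finger genes named Zfp had one in 8 of 132, led by Zfp513 (31 and 3, 9.73-fold), Zfp786 (80 and 14, 6.94-fold) and Zfp628 (67 and 19, 4.39-fold).

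Hox genes had one in 4 of 25, on 3 regions. Hoxa5 and Hoxa6 held 2, with 60 against 11 tags (6.50-fold) and 47 against 21 (2.82-fold), and Hoxb5 with Hoxb3 held 1 (27 against 5, 5.82-fold). Clustered protocadherins had one in 22 of 49 genes, but on only 2 regions. Olfactory receptor genes had one in 2 of 46 (Olfr1270 and Olfr32, 4.73-fold), histone genes in 2 of 64, on the H2bc1 and H2ac1 region alone, and keratins in 1 of 20 (Krt222, 4.70-fold).

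Of contractile and fusion genes, 3 of 22 had a region. Atp2a1, the calcium pump of fast muscle, held 2 at the 3′ end that faces Rabep2 (42 and 11 tags, and 35 and 9, both 4.58-fold). Mymx, a myoblast fusion gene, had 29 and 8 tags (4.22-fold) and Myh6, a cardiac myosin gene, 48 and 14 (4.20-fold). Of cell cycle genes, 3 of 13 had one, the mitotic kinase genes Aurka (30 and 6, 5.56-fold) and Plk1 (44 and 21, 2.64-fold) and the inhibitor gene Cdkn2d (73 and 20, 4.55-fold). None was found at the 4 myogenic regulators and 7 genes of the methylation machinery that lie in close pairs. Of other cell types, 0 of 4 endothelial and 0 of 2 immune markers and 1 of 4 Schwann and neural markers (Gfap, on a region it shares with Fam187a and Ccdc103, 23 and 5 tags, 4.99-fold) had one, and no fibro-adipogenic progenitor marker lies in a close pair.

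The last question was how promoters at close pairs compare in CpG content, from windows of 250 bases before to 50 after a start. Promoter windows of head-to-head genes were rich in CpG, with 10 or more CpG in 80.5% of 2854 windows. In other close pairs this was 65.6% of 6275 windows, and in genes of no close pair 47.6% of 10956. A region overlapped 15 head-to-head windows (0.526%), 48 of other close pairs (0.765%) and 81 of genes in no close pair (0.739%). In close pairs the share was 2.31% of windows with 5 to 9 CpG (29 of 1257) and 0.193% of those with 20 or more (8 of 4150). Genes in no close pair had similar values in these classes, 1.98% (33 of 1668) and 0.151% (5 of 3301), with overlapping limits. Other classes were less alike. At 10 to 19 CpG the share was 0.839% in close pairs (19 of 2265) and 1.67% in none (32 of 1918). With 0 to 1 CpG it was 0.783% (3 of 383) and 0.0549% (1 of 1822). At 2 to 4 CpG it was 0.372% (4 of 1074) and 0.445% (10 of 2247). Limits overlapped in each of these classes too. Of the 8 close-pair windows with 20 or more CpG and a region, 7 were head-to-head (7 of 1576, 0.444%, limits 0.179% to 0.913%). These limits overlapped those of genes in no close pair (0.0492% to 0.353%). Head-to-head windows alone had 2.81% (7 of 249) at 5 to 9 CpG and 0.139% (1 of 721) at 10 to 19 CpG. The 8 head-to-head windows with 10 or more CpG and a region belonged to 7 genes, Smc1b, Ribc2, Mov10l1, Btbd18, Ctnnd1, Slc6a16 and Mthfsl. Among the sequences printed above, the Atm and Npat stretch has 6 CpG in 60 bases and no region, while that of Btbd18 and Ctnnd1 has 10 in 94 and 158 oil tags. Windows of facing genes overlap, so 1 region can count for both. A promoter without a region may have had no captured DNA in either library or the same amount in both, which the list does not tell apart.

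**Figure D5:**
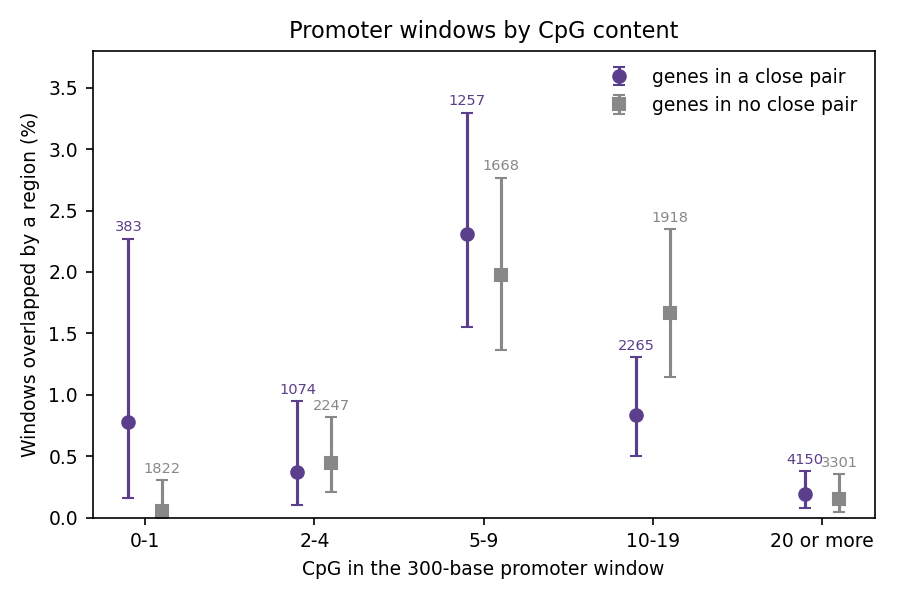
Share of 300-base promoter windows overlapped by a region (vertical axis, percent) by their number of CpG (horizontal axis), for genes in a close pair and in none. Points are shares, bars exact 95% limits and small numbers the windows. At 5 to 9 CpG the share is highest in both, 2.31% in close pairs and 1.98% in none. At 10 to 19 CpG it is 0.839% and 1.67%, and at 20 or more CpG 0.193% and 0.151%.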

How the data were processed

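The authors called the deposited regions with MACS 2.2.6, per the file headers, with oil as treatment input, tamoxifen as control input and a q cutoff of 1e-04. At most 1 tag per position was kept, tags were extended to 201 bp and the library with more kept tags was scaled down. The deposited pileup is a signal value, the oil tags over the summit. The deposited fold is the ratio of oil plus 1 to scaled tamoxifen plus 1. Columns of the authors' -log10 p and -log10 q had lost their headings and were read by their place. Trim Galore, HISAT2 and mm10 are named in the submitters' processing notes.

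Tamoxifen tags were recovered from pileup, fold and the library factor of 0.763. They were whole within 0.02 tags in 38251 of 39231 regions. The other 980 lay at the genome mean, meaning 2 or fewer tags.

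Gene ends came from the RefSeq table of GRCm38.p6. Strand came from the RefSeq promoter table, which held 16457 of 20665 autosomal protein-coding genes. Each region was assigned to the genes of its 2 nearest ends. It counted as inside a gene where its midpoint lay in that gene. Genome stretches meeting the rule were measured on a 20 bp grid. Intervals are exact 95% limits (Clopper-Pearson for shares and tag ratios, Poisson for densities) and cover counting error only. The scripts were tested on simulated gene pairs.

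For each orientation, named regions are the 5 of highest fold and the 2 with most oil tags whose genes both have symbols other than Gm numbers or Rik clones. Up to 3 regions per gene list and the pairs with most regions are also named. Regions with strand not known were named by the same rule, added after the values were seen. One of them is not reported here. The 11 head-to-head regions nearest to a start were also added then. Members and the 20 gene lists were chosen with earlier results of these data known. There is 1 library per treatment, so the planned comparisons have no test. Python 3.11.15, pandas 2.3.3, numpy 2.4.6, scipy 1.17.1 and matplotlib 3.10.9 were used.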

Additional observations from a re-analysis of the deposited data

How the results depend on the processing

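Of 40 recalculations over 8 alternative settings, 24 gave a value inside the main interval, or a region count within 1.5 times of the main one. With a gene end required within 1000 bp, 154 regions qualified, and 1.13% of head-to-head (0.564% to 2.01%), 5.08% of tail-to-tail (3.82% to 6.61%) and 3.38% of tandem pairs (2.34% to 4.72%) held one. Tail-to-tail limits there overlapped those of tandem pairs and head-to-head limits did not, and the cause was not tested. Within 5000 bp the count was 2081 regions, with 13.6%, 21.2% and 13.4% of pairs and 70.8% of regions at 4-fold or more. Head-to-head pairs were thus no longer below tandem pairs at that distance, and the cause was not tested. Both distance settings also changed which pairs were counted, because the allowed spacing of their ends changes with the distance. At a q limit of 1e-10, 9.55% of tail-to-tail pairs held a region, the median fold was 5.31 and 84.2% of regions reached 4-fold, as this limit drops weak regions. With tamoxifen tags left unscaled the median fold was 3.88 and 47.4% reached 4-fold. With nothing added to the tags these were 5.46 and 79.8%, both by construction. Counting any overlap in place of the midpoint, leaving out Gm and Rik genes, or leaving out shared gene ends moved none of the 6 results past these bounds. Leaving out a library was not possible with 1 library per treatment. No paired analysis was possible because each group has 1 sample. Weakly covered regions limit the folds most, since at 3 tamoxifen tags the upper limit of the ratio is several times the lower.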

Other observations

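Among the 506 regions, 25 (4.94%) also lay within 2000 bp of the end of a lncRNA gene, 12 (2.37%) of a miRNA gene and 3 (0.593%) of a snoRNA gene. The same shares were not counted over all autosomal regions, so whether these are high or low is not known. The region between Phb2, a mitochondrial prohibitin gene, and the phosphatase gene Ptpn6 (chromosome 6, 124718779 to 124719010) lay 504.5 bp from Mir200c and 909.5 bp from Mir141. The oil library had 33 tags there and the tamoxifen library 11 (3.62-fold). The region at Urm1 and Cercam (chromosome 2, 29845004 to 29845204) lay 527 bp from Mir219a-2 and was 4.78-fold higher in oil, at 22 tags against 5. Both regions of Cdh24 and Acin1 lay close to Mir6948, at 118.5 and 932 bp. These pairs were picked after their values were seen.

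The 506 regions were spread unevenly over the 19 autosomes. Chromosomes 7 and 11 held 56 each, which was 2.62% and 2.28% of their regions, while chromosome 13 held 6, or 0.341%. Chromosomes 7 and 11 also have the most close gene pairs, 635 and 595. Of these pairs 7.56% and 8.57% held a region, against 6.99% of all close pairs. On chromosome 13 this share was 2.49%. The share of a chromosome's close gene pairs with a region ran from 1.43% on chromosome 18 (7 of 490 pairs) to 11.5% on chromosome 6 (29 of 253). On chromosome 18 the strand of none of the 511 genes was known, and many of its pairs are protocadherin genes that share ends.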
